A study of Homo sapiens with 2 samples.

Results

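The 5 genes HTATIP2, KRTCAP3, PLAC8, NBEA and REPIN1 were picked as bright in HARA and near background in HARA-B4. HARA is an established line of human squamous cell carcinoma of the lung, and HARA-B4 is a subline of it with a high capacity to metastasise to bone. Each line was measured once, with total RNA from cells grown in the same serum-supplemented RPMI medium and 1 Affymetrix array (n = 1 for each line). The 5 genes are 5 of the 19775 genes that a single-symbol probe set names on the array, and together they have 11 probe sets. They were selected on these very values, the signals on the 2 arrays, so the values are given as a description, and with 1 array for each line no p-value or biological spread can be given.

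The 5 genes do different things in a cell. HTATIP2 (also called TIP30 or CC3) is a protein of the short-chain dehydrogenase fold that has been described as a suppressor of metastasis and binds importins, the carriers of nuclear import. KRTCAP3 (keratinocyte-associated protein 3) is predicted to span the membrane, and its function is little known. PLAC8 is a small cysteine-rich protein first found in placenta and abundant in leukocytes. NBEA (neurobeachin) is a large protein of the BEACH domain family that anchors protein kinase A and acts in membrane traffic, and it is best known from neurons. REPIN1 is a C2H2 zinc finger protein first isolated by its binding near a replication origin.

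The start regions of the genes are shown first, because the genes share a low signal in HARA-B4; the arrays do not measure the promoters themselves. The RefSeq promoter table (GRCh38.p14) held all 5 genes, with 10 start sites in all. The 250 bases before a start are printed 5′ to 3′ on the gene's own strand, with each CpG, the site at which human DNA can be methylated, in capitals. They are chr11:20363464-20363713 (plus strand) for HTATIP2, chr2:27442131-27442380 (plus) for KRTCAP3 and chr13:34942020-34942269 (plus) for the first start of NBEA. For PLAC8 they are chr4:83114730-83114979 and chr4:83109890-83110139, both on the minus strand, and for the start of REPIN1 shown here chr7:150368572-150368821 (plus).
HTATIP2: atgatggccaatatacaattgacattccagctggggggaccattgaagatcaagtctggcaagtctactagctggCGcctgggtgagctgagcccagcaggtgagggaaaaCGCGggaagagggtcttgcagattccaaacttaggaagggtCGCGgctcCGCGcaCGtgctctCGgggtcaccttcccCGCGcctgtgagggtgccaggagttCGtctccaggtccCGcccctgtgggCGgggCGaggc
KRTCAP3: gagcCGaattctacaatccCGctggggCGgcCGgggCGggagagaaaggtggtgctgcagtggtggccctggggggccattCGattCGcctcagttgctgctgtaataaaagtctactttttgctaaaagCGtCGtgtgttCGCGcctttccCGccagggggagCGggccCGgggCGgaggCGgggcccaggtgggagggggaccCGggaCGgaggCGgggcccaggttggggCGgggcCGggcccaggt
PLAC8 upstream start: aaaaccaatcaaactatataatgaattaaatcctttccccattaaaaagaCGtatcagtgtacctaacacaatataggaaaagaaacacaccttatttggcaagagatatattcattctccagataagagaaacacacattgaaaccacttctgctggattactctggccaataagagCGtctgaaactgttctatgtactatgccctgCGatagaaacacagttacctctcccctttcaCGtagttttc
PLAC8 downstream start: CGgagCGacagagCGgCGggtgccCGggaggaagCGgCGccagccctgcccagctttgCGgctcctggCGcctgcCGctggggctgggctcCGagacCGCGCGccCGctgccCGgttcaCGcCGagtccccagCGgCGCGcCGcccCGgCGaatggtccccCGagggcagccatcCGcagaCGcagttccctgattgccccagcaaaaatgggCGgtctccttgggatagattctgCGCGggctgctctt
NBEA: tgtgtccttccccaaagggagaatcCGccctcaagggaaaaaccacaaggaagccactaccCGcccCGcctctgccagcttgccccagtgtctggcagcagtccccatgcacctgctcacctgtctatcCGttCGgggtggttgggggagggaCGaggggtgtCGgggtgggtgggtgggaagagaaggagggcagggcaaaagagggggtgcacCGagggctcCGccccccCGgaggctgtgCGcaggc
REPIN1: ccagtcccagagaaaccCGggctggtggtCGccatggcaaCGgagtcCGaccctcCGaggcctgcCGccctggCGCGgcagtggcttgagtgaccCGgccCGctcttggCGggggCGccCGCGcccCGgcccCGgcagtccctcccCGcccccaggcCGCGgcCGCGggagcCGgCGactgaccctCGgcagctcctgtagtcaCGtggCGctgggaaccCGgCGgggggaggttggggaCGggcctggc

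A window was called CpG-rich when at least 50% of its bases were G or C and its CpG count was at least 0.6 of the count that its C and G content would give. Each of the 5 genes had at least 1 CpG-rich window. Of the genes above background in HARA with an entry in the table, 84.9% had one. By windows, 6 of the 10 (60%) were CpG-rich, against 72.1% for those genes and 45.0% for all promoters in the table. With 5 genes and 10 windows, nothing is read from these shares. HTATIP2 had 15 CpGs in its only window and KRTCAP3 21. PLAC8 had 4 CpGs at its upstream start, where G and C made up 36.8% of the bases, and 30 at its downstream start, with 72.8%. REPIN1 ran from 4 to 38 CpGs over 4 starts. The first start of NBEA had 66.4% G and C but a CpG ratio of only 0.404, under the limit, and its second start was CpG-rich at 0.661. The arrays read the 3' part of transcripts, so they do not tell which of these starts HARA used.

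Common promoter letters also differed among the genes. The GC box GGGCGG, searched on both strands, was present in 7 of the 10 windows (70.0%) against 42.6% of all promoters in the table and 63.6% of those of genes above background in HARA. The window of KRTCAP3 held 4 matches, the most of the 10. The CCAAT letters were found at HTATIP2, at the upstream start of PLAC8, at the second start of NBEA and at the last start of REPIN1, while 32.0% of all promoters hold them. TATAAA was present only at the second start of NBEA, against 10.7% of all promoters. A match is a string of letters and not a site shown to be used.

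The probe sets of the 5 genes were read against a background level of 27.2, the 95th percentile of the signals of 162 probe sets for olfactory, taste and vomeronasal receptor genes on both arrays. In HARA 9 of the 11 probe sets were above this level, and in HARA-B4 0 of 11 were. Of all 19775 genes, each read by 1 probe set, 10898 were above it in HARA and 10798 in HARA-B4. Of the 11, 10 had a lower signal in HARA-B4. Among all genes above background on at least 1 array, 48.5% had a negative difference. The 5 genes were picked on these signals, so nothing is read from the counts of their probe sets. In RNA from whole cultures, fewer cells with a transcript and less of it in each cell cannot be told apart. Where HARA-B4 was at or under background, the background level stood in for its signal, so each fold is a lower bound. Among 11490 genes above background on at least 1 array, 119 (1.04%) were HARA-only genes, above it there and not in HARA-B4, by 2-fold or more, and 97 (0.844%) showed the opposite pattern. The 5 genes lay at places 2, 6, 8, 10 and 13 among the 119, and all were among the 14 (0.122%) with a bound of 8-fold or more. They were picked by this difference, so nothing is read from those places. The last of the 5, REPIN1, was 11.0-fold, and the next gene outside, SPP1, 10.1-fold. MMP16, just above REPIN1 in that order at 11.4-fold, is not among the 5.

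**Figure D1:**
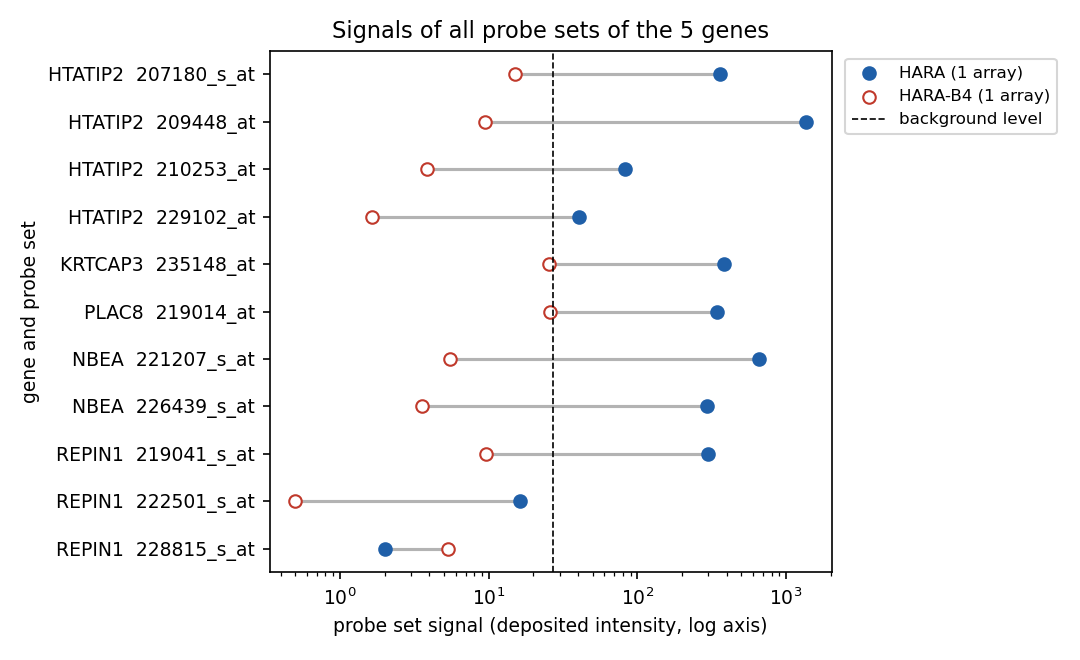
Signal of each of the 11 probe sets in HARA (filled circles) and HARA-B4 (open circles), 1 array for each line, on a log axis of deposited intensity; the dashed line is the background level of 27.2. All open circles lie left of the line, those of KRTCAP3 and PLAC8 close to it, and 2 REPIN1 probe sets lie left of it in both lines.

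HTATIP2 was the most fully covered of the 5. Its probe set 209448_at gave a HARA signal of 1362 and a HARA-B4 signal of 9.52, so HARA was at least 50.2-fold higher. The probe set 207180_s_at read 358 in HARA and 15.1 in HARA-B4, a bound of at least 13.2-fold. All 4 probe sets were above background in HARA and none was in HARA-B4. The other two were dimmer in HARA, 210253_at at 82.2 against 3.84 (at least 3.03-fold) and 229102_at at 40.6 against 1.65, a bound under 2-fold. The smaller bounds of the dim probe sets follow from how little their HARA signal exceeded background. In HARA-B4 the signal of 209448_at was higher than 71.9% of the receptor signals, so it lay within the range of genes taken as not used.

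NBEA was read by 2 probe sets, both of the _s_at kind, which can match several transcripts. The probe set 221207_s_at gave 654 for HARA against 5.49 for HARA-B4, at least 24.1-fold higher in HARA. The other, 226439_s_at, had 295 in HARA and 3.54 in HARA-B4, at least 10.9-fold. Both HARA-B4 signals lay near the middle of the receptor signals, above 56.2% and 45.4% of them.

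KRTCAP3 and PLAC8 each had 1 probe set, so no second probe set of the gene stands behind either value. KRTCAP3 (235148_at) stood at 382 in HARA against 25.5 in HARA-B4, at least 14.1-fold higher in HARA. PLAC8 (219014_at) had 342 in HARA and 26.0 in HARA-B4, at least 12.6-fold. In HARA-B4 both lay just under the background level of 27.2 and above 93.5% and 93.8% of the receptor signals. A background level set without the receptor pseudogenes was 25.2, and by it both genes were above background in HARA-B4, with folds of 15.0 and 13.2. The words "near background" therefore fit them better than "off".

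REPIN1 rested on 1 of its 3 probe sets. The probe set 219041_s_at gave 299 for HARA against 9.59 for HARA-B4, at least 11.0-fold higher in HARA. The remaining ones were below background in both lines, 222501_s_at with 16.3 for HARA against 0.502 for HARA-B4, and 228815_s_at with 2.01 against 5.34. No fold is given for these, and the second of them ran the other way. When the 3 probe sets were averaged on the log2 scale, REPIN1 was below background in both lines.

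**Figure D2:**
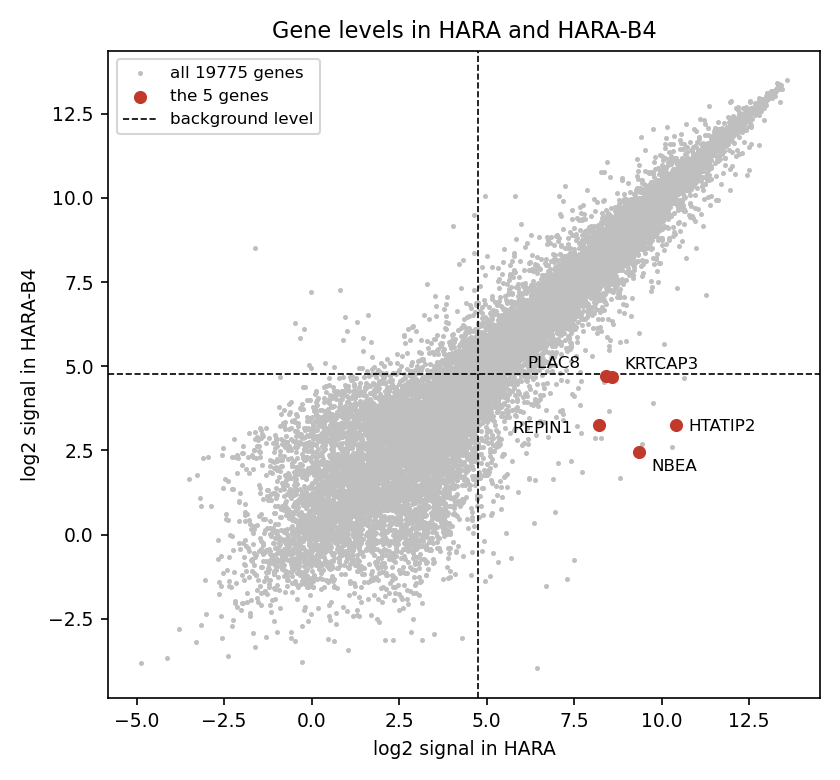
Log2 signal of each of the 19775 genes in HARA (horizontal) and HARA-B4 (vertical), 1 probe set for each gene; dashed lines mark the background level and red points the 5 genes. The 5 lie below and to the right of the main cloud, under the background line of HARA-B4, with KRTCAP3 and PLAC8 almost on it.

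Of the 119 HARA-only genes, 36 had 2 or more probe sets above background in HARA, and in 34 of these no probe set was above background in HARA-B4, a share that the selection of these genes largely fixes. HTATIP2 and NBEA belong to those 34. Over 4829 genes with several probe sets above background in both lines, the log2 difference varied within a gene by an SD of 0.30. This is a spread among probe sets, which can match different transcripts of a gene, and it says nothing of biological repeats.

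The genes nearest in level to each of the 5 were found by the distance of log2 signals over the 2 arrays. HTATIP2 was nearest to CALB1 (distance 0.67) and GPD2 (0.92). NBEA was nearest to EPHA3 (0.26) and MAGEA11 (0.94). KRTCAP3 and PLAC8 were nearest to each other (0.16), and VCAN, the proteoglycan versican, came next for both (0.27 and 0.19). REPIN1 was nearest to MMP16 (0.39) and SPP1 (0.40), a membrane protease and osteopontin. Signals under background have no order, so these distances rest in part on values that cannot be ranked. With such signals set to the background level, an alternative chosen after seeing the data, HTATIP2 was nearest to CALB1 and TRIP6, NBEA to EPHA3 and GPD2, KRTCAP3 to DIRAS3 and PLAC8, PLAC8 to VCAN and DIRAS3, and REPIN1 again to MMP16 and SPP1. These distances compare the HARA signals alone and do not show a shared pattern.

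The 5 genes lie on 5 chromosomes, and their neighbours in RefSeq gene order were read to see how far a low signal extended. Of the 50 measured neighbours, 5 on each side of each gene, 28 were above background on at least 1 array. Of these 28, 2 were at least 2-fold lower in HARA-B4 and 0 higher, where 4.20% of all genes were lower and 3.62% higher. Both lower ones flanked REPIN1. As a wider view, chosen after the near neighbours were seen, 12 genes above background in both lines were taken on each side, 24 for each gene. This rule leaves out any gene above background in HARA only, so the wider group cannot show whether other genes nearby share that state. Log2 differences below are HARA-B4 minus HARA, with signals under background set to that level.

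HTATIP2, on chromosome 11, had 3 near neighbours above background, of which 0 were 2-fold lower. Its neighbour PRMT3, a protein arginine methyltransferase, gave 933 for HARA against 909 for HARA-B4 (-0.04). On that side SLC6A5 was below background in both lines, as were NAV2-AS2 and LEISA1 on the other. The 24 wider neighbours had a median of 0.17 and ran from -0.56 to 1.35, against -5.65 for HTATIP2 itself. SVIP, at 123 in HARA against 315 in HARA-B4, was the 1 of 24 at least 2-fold higher. Of all genes above background on at least 1 array, 3.62% were at least 2-fold higher.

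KRTCAP3, on chromosome 2, lies between NRBP1 and IFT172, and neither was lower. NRBP1, a pseudokinase, had 269 in HARA and 389 in HARA-B4 (0.53), and IFT172, of ciliary transport, 34.2 and 50.7 (0.57). The phosphatase gene PPM1G differed by -0.01, and FNDC4 was below background in both. The wider neighbours had a median of 0.00 and a range from -0.61 to 0.57, against -3.81 for KRTCAP3.

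PLAC8, on chromosome 4, lies between COPS4 and COQ2, both bright in both lines. COPS4, a subunit of the COP9 signalosome, had 940 in HARA and 1115 in HARA-B4 (0.25), and COQ2, an enzyme of coenzyme Q synthesis, 344 and 353 (0.04). LIN54 differed by -0.33 and the heparanase gene HPSE by -0.50. All 10 near neighbours were above background and 0 reached 2-fold. In the wider group, with a median of 0.04, 3 of 24 were at least 2-fold lower, where 3.57% of all genes above background in both lines were: the phosphatase PTPN13 (-2.17), the steroid dehydrogenase HSD17B11 (-1.58) and KLHL8 (-1.24). PLAC8 itself had -3.65.

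NBEA, on chromosome 13, has RFC3 and LINC00445 as its measured neighbours. RFC3, of the replication clamp loader, had 790 in HARA and 971 in HARA-B4 (0.30). LINC00445, DCLK1 and STARD13-AS were below background in both lines, and only 3 of the 10 near neighbours were above it. In the wider group the median was 0.04, and 2 of 24 were at least 2-fold higher. They were the ubiquitin-like UBL3 (1.86) and the cationic amino acid transporter SLC7A1 (1.48). The share at least 2-fold higher was 3.62% over all genes above background on at least 1 array. NBEA had -4.59.

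REPIN1, on chromosome 7, differed from the other 4 in its wider surroundings, described after the near neighbours. LRRC61 had 62.8 in HARA and 26.4 in HARA-B4, at least 2.31-fold lower in HARA-B4, and the zinc finger gene ZNF775, next to REPIN1, 58.7 and 22.6, at least 2.16-fold. ZBED10P was just above background in HARA (32.5) and below it in HARA-B4 (7.27), while RARRES2 and LOC728743 were below it in both. All 4 near neighbours above background were above it in HARA only, which fixes the sign of their differences, so nothing is read from that sign. Of the 24 wider neighbours 21 had a negative difference, where 47.9% of all genes above background in both lines did, and their median was -0.52. They included the anion exchanger SLC4A2 (-1.61), the glycosyltransferase GALNT11 (-1.12) and AGAP3, the 3 of 24 that were at least 2-fold lower. Of all genes above background in both lines, 3.57% were at least 2-fold lower. REPIN1 had -3.46, lower than any of the 24, whose lowest value was -1.61. By their rule the 24 hold no gene above background in HARA only. What part of the REPIN1 value the regional shift makes up was not tested.

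**Figure D3:**
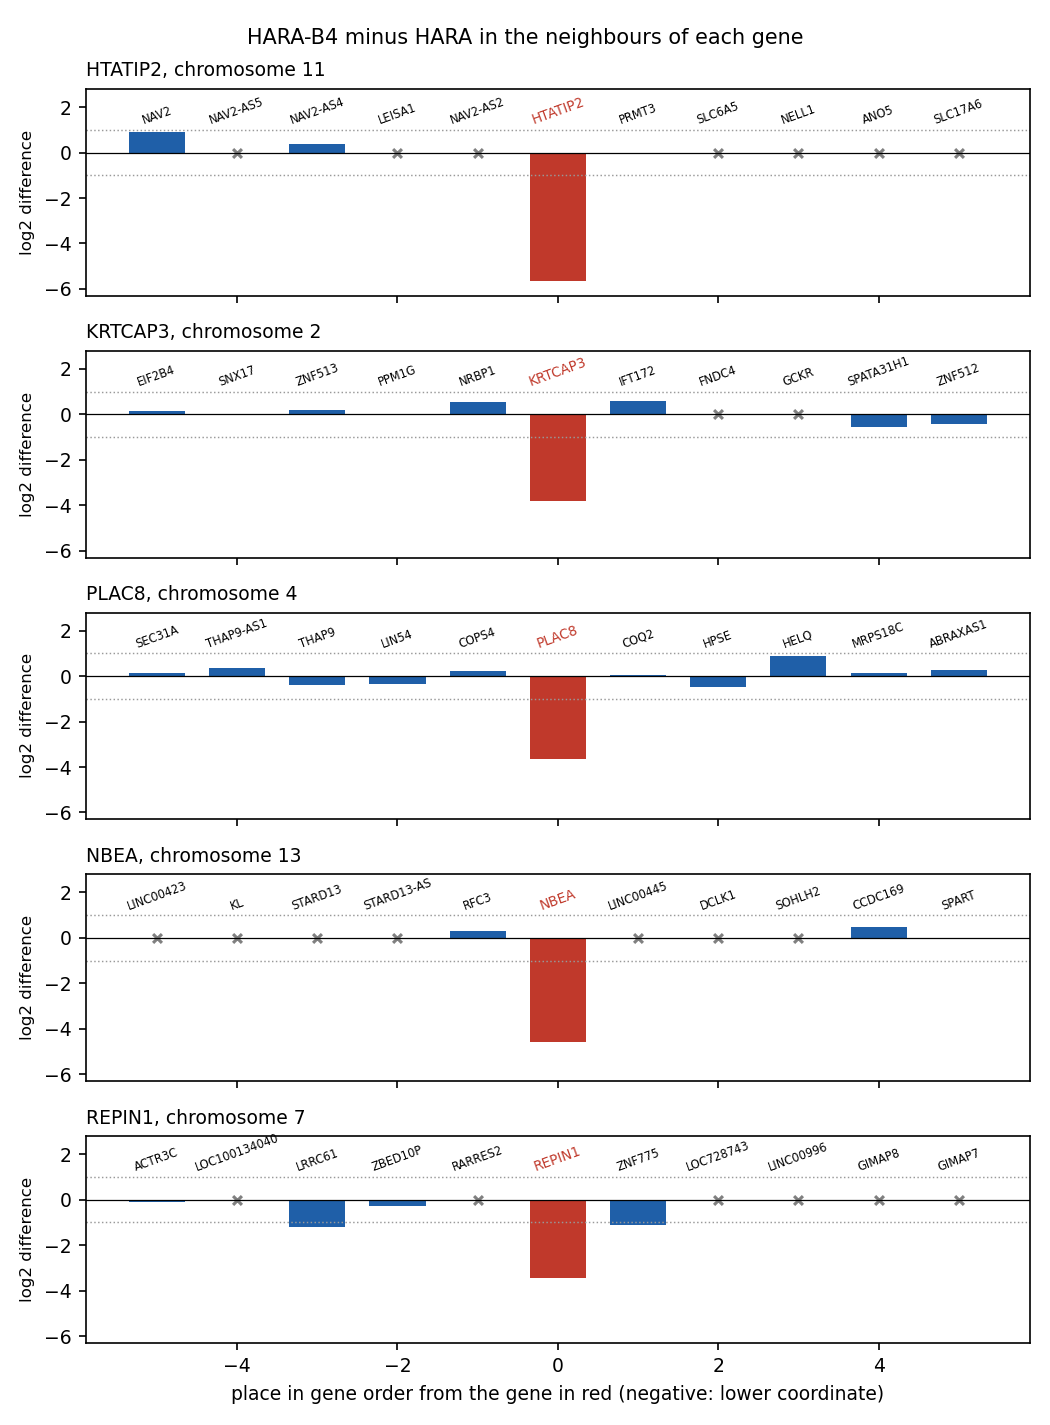
Log2 difference, HARA-B4 minus HARA, for each of the 5 genes (red) and for 5 measured neighbours on each side in RefSeq gene order (blue); crosses are genes below background in both lines, and dotted lines mark 2-fold. Signals under background are set to that level, so the red bars are lower bounds for 1 probe set of each gene and this background level. The neighbours of HTATIP2, KRTCAP3, PLAC8 and NBEA lie within 2-fold, while LRRC61 and ZNF775 beside REPIN1 pass it.

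The relatives and partners of the 5 genes were taken from lists of known families and pathways, leaving the 5 themselves out. Across all 11490 genes the median difference was 0.01. The zinc finger genes of 7q36, the band of REPIN1, had the lowest median of the 8 family and partner lists with a member above background. The list comes from the region of REPIN1 and shares ZNF775 with its neighbours, so it is not a separate observation. Of 10 above background, 9 had a negative difference, against 48.5% of all genes, with a median of -0.40. Only ZNF775 was 2-fold lower, and ZNF783 ran the other way (0.73), although another probe set of it above background gave -0.35.

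The BEACH family of NBEA was not low as a group. Of 6 relatives above background, 0 were 2-fold lower and 1 was higher, with a median of -0.02. That one was LYST, a regulator of lysosomal traffic, at 52.5 in HARA against 145 in HARA-B4 (1.47), of which another probe set above background differed by 0.73. The closest relative of NBEA, LRBA, had 347 in HARA and 206 in HARA-B4 (-0.76), while its other probe set gave 117 against 106 (-0.14). WDFY4 and NBEAL2 were below background in both lines.

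Protein kinase A, which NBEA anchors, was mixed. Of 18 subunits, inhibitors and anchors above background, 2 were higher, 1 was lower and 15 were neither (median -0.01). The scaffold AKAP12 had 67.2 in HARA and 233 in HARA-B4 (1.79), and the catalytic subunit PRKACB 269 and 561 (1.06). PKIA, a peptide inhibitor of the kinase, had 83.4 in HARA and 3.05 in HARA-B4, at least 3.07-fold lower in HARA-B4. The regulatory subunits PRKAR1A (-0.18) and PRKAR2A (-0.15) were under 2-fold.

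The list of importins, which HTATIP2 binds, and other genes of nuclear import gave 0 of 22 genes at 2-fold, with a median of 0.00. RAN, the GTPase that gives transport its direction, had 7408 in HARA and 7039 in HARA-B4 (-0.07), while its other probe set gave 3140 against 1923 (-0.71). The adaptor KPNA2 had 5045 and 4784 (-0.08). Of 11 other dehydrogenases of the extended and atypical kinds, 1 was lower, SDR42E1, at 71.0 in HARA against 17.2 in HARA-B4 (at least 2.61-fold), and the median was 0.04.

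Among 18 other genes described as metastasis suppressors, 1 was lower and 2 were higher in HARA-B4 (median 0.05). The lower one was DLC1, at 55.8 in HARA against 13.2 in HARA-B4 (at least 2.06-fold). Of its 5 probe sets, 4 were above background in HARA and 0 in HARA-B4. The metalloproteinase inhibitor TIMP3 was higher (1.15), and NDRG1, at 230 in HARA against 460 in HARA-B4, stood at the limit. The metastasis suppressors NME1 (-0.15) and CD82 (-0.69) were under 2-fold.

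KRTCAP3 was set beside an epithelial programme, of which 24 genes were above background. None of them was 2-fold lower and 1 was higher, the transcription factor GRHL1 (1.64), with a median of 0.00. The list does not hold every epithelial gene. KRT19 and CLDN7, both HARA-only genes at 2-fold or more, lie outside it. KRTCAP2, in the list and the gene most like KRTCAP3 in name, had 1262 in HARA and 1296 in HARA-B4 (0.04). E-cadherin (CDH1) differed by 0.23 and EPCAM by 0.14. The origin recognition and licensing genes, chosen for REPIN1, gave 0 of 16 at 2-fold and a median of 0.00, with GMNN at 0.13 and MCM2 at -0.02. The 2 relatives of PLAC8, PLAC8L1 and CNFN, were below background in both lines.

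**Figure D4:**
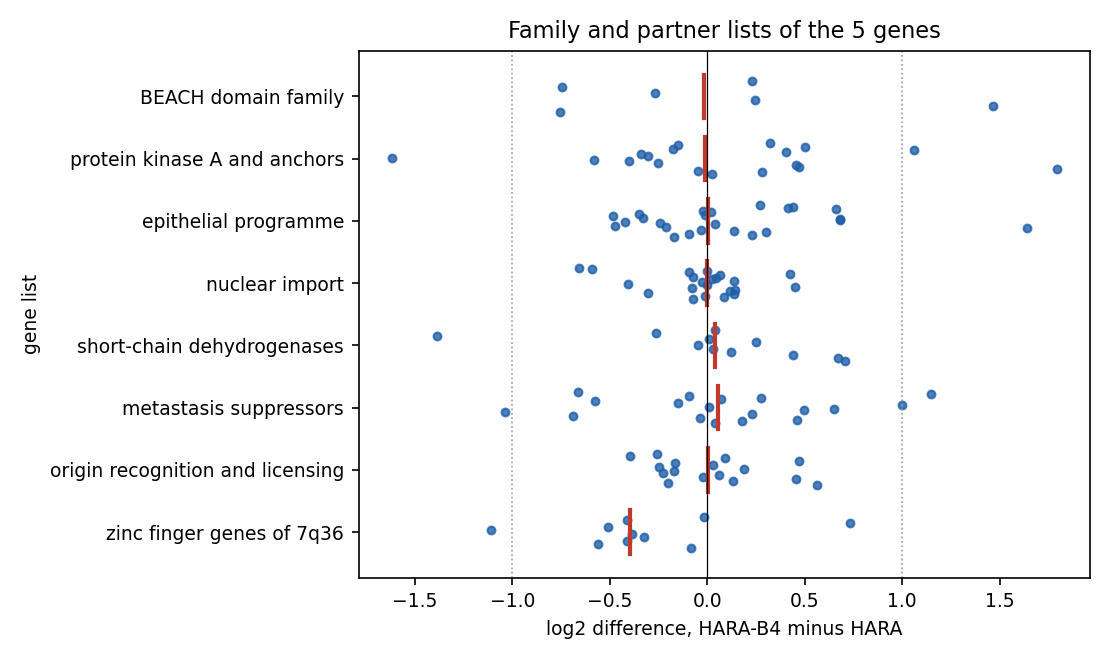
Log2 difference, HARA-B4 minus HARA, of single genes (blue points) in 8 family and partner lists without the 5 genes, with each list's median as a red bar; dotted lines mark 2-fold and only genes above background on at least 1 array are drawn. The median of the zinc finger genes of 7q36 lies at -0.40, and the other medians lie between -0.02 and 0.05.

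Markers were read for the cells in which these genes are best known. Basal squamous markers were bright in both lines, with KRT5 at 4723 in HARA against 4504 in HARA-B4, and 1 of 8 reached 2-fold, PKP1 (1.82). Of the 8, 4 had a negative difference. The lowest was DSC3 (-0.98), whose other probe sets gave -1.36 and -0.85. Of 9 blood cell markers, 8 of leukocytes and HBB of red cells, 4 were above background, with a summed signal over the 9 of 168 in HARA and 162 in HARA-B4. CD79A, of B cells, had 63.4 for HARA against 55.2 for HARA-B4, and HBB 35.7 against 33.9. All other probe sets of CD79A and HBB were below background in both lines. CORO1A and ITGAM were just above background in HARA-B4 only, at 27.9 and 28.6, and PTPRC, CD3D, LYZ, SPI1 and CD14 were below background in both lines. Both samples were RNA from cultured lines, and a link between the PLAC8 signal and these markers was not tested. Of 9 neuronal markers 4 were above background, with summed signals of 461 and 427. SYT1, of synaptic vesicles, had 307 for HARA against 66.2 for HARA-B4 (-2.21), and MAP2, of neuronal microtubules, at 40.2 and 240 (2.57), while SYP, STMN2, RBFOX3, CHGA and ELAVL4 were below background in both. Among fibroblast markers, THY1 was at least 2.35-fold lower in HARA-B4 but FAP at least 5.69-fold higher. The alveolar and glandular markers gave 0 of 3 at 2-fold, with a median of -0.44. All 3 were near background: SFTPB at 43.7 in HARA and 56.1 in HARA-B4, SFTPC at 36.8 and 25.4, and NKX2-1 at 58.6 and 41.9.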

How the data were processed

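Total RNA of HARA and HARA-B4 was measured on 1 array each. The values the authors deposited are linear probe set intensities, made with Affymetrix Expression Console per the submitters' processing notes. For its version, summary method and scaling, the labels are silent. The values were taken to log2 with no further scaling, with Python 3.11.15 and pandas 2.3.3.

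Of 54675 probe sets, 41097 had 1 gene symbol in the platform annotation, 1801 several and 11777 none; 41043 were matched by Entrez ID to RefSeq (GRCh38.p14). Each gene was represented by the probe set of highest mean log2 level. Median signals were 17.3 (HARA) and 16.2 (HARA-B4). No test was possible with 1 array for each line, a number that also limits how precise any value is. The counting of genes was run on simulated data with large drops set in bright genes. That checks the code and says nothing of the counts reported here. The 5 genes, the lists and the rule for named genes were chosen with earlier results of these data known. The rule names each list's members at 2-fold (up to 4) or its 2 brightest, the 2 nearest neighbours on each side, any neighbour at 2-fold, and the 2 genes nearest in level; other genes were named after their values were seen. Genes without a single-symbol probe set are not analysed here.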

Additional observations from a re-analysis of the deposited data

How the results depend on the processing

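Alternatives gave each of the 5 genes a fold bound in 9 or 10 settings, 48 in all, and 47 stayed at 2-fold or more. The exception was REPIN1 with the mean of its probe sets, at a log2 bound of 0. In 42 of the 48 the gene was above background in HARA only, and in 5 in both lines: KRTCAP3 and PLAC8 with the background lowered by 0.5 and without pseudogenes, and PLAC8 under quantile normalization. Log2 bounds for HTATIP2, KRTCAP3, PLAC8, NBEA and REPIN1 were 4.65, 2.81, 2.65, 3.59 and 2.46 with the background raised by 1, and 4.997, 3.21, 3.05, 3.96 and 2.87 with log2(signal + 16). With the background lowered by 0.5 they were 6.15 for HTATIP2, 5.09 for NBEA and 3.96 for REPIN1. The mean of all probe sets gave 2.89 for HTATIP2 and 4.01 for NBEA, and the probe set highest in HARA-B4 gave 3.72 for HTATIP2. Median subtraction changed only HARA-B4 signals, which the background level, itself unchanged, replaces in all 5 genes, so no bound could move. KRTCAP3 and PLAC8 have 1 probe set each, so the settings that choose or average probe sets could not move theirs. Removing _x_at and _s_at probe sets leaves the main HTATIP2 probe set in place. These settings are within the 48, so 47 is not a count of separate checks. Under quantile normalization and lowess all bounds moved by less than the within-gene SD. Once _x_at and _s_at probe sets are removed, NBEA and REPIN1 have no value. HARA-only genes numbered 230 at 1.5-fold, 61 at 3-fold and 14 at 8-fold, and all lower genes 1269, 155 and 21. The median of the REPIN1 neighbours ran from -1.01 with the background lowered to -0.16 with it raised, its sign fixed at the background used in the report, and that of the NBEA neighbours was -0.11 with the mean of all probe sets. The median of the alveolar and glandular markers was -0.03 with the background raised by 1. The background set without pseudogenes and the floored distances were chosen after seeing the data. No paired analysis was possible because each line has 1 array.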

Other observations

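Of the 96 HARA-only genes at 2-fold that the promoter table holds, 63.5% had a CpG-rich window, against 86.6% of the genes above background in both lines. The difference between these shares was not tested.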
